A study of Mus musculus with 16 samples.

Results

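The Hox genes and the genes of their Meis and Pbx partners were followed through the responses of 2 mouse epicardial cell lines to TGFB1, TGFB2 and BMP2. Members were every gene entry named Hoxa, Hoxb, Hoxc or Hoxd with a number, Meis1 to Meis3, or Pbx with a number, which gave 44 of 30385 entries: 39 Hox genes (11 HoxA, 10 HoxB, 9 HoxC and 9 HoxD), 3 Meis genes, and Pbx2 and Pbx4. The line called wt carries intact Tgfbr3 (Tgfbr3+/+:Immorto) and the line called mt lacks it (Tgfbr3-/-:Immorto), Tgfbr3 encoding the type III TGF-beta receptor. Both lines came from the epicardium of E11.5 mouse embryos on a mixed C57BL/6 and SV129 background, and both carry the Immorto transgene, whose T antigen was active during growth at 33 °C and not in the experiment at 37 °C. Wells of 200000 cells received vehicle, 250 pM TGFB1, 250 pM TGFB2 or 5 nM BMP2 for 72 h, in duplicate, and polyadenylated RNA was sequenced. This gave 8 groups of 2 libraries. Nothing in the labels says that duplicates came from separate cultures, so p-values measure the spread between libraries, which may be technical.

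Hox proteins are homeodomain transcription factors encoded in 4 clusters, and genes at the low-numbered end of a cluster are as a rule active earlier and further forward in the embryo than genes at the high-numbered end. Meis and Pbx proteins are TALE homeodomain factors that bind DNA together with Hox proteins and sharpen their choice of sites. The epicardium is the mesothelial cover of the heart, and TGF-beta ligands are known to drive it toward mesenchyme, while the type III receptor presents ligand, TGFB2 above all, to the signalling receptors.

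Library totals ran from 6410320 to 31813921 reads. Expression is given in CPM, reads scaled by TMM factors to a library total of 1e+06, with replicate 1 before replicate 2. A gene was called changed at an adjusted p under 0.05 in edgeR's quasi-likelihood test over 16835 genes. Tgfbr3 was between 71.0 and 100.0 CPM in wt vehicle and between 14.6 and 18.2 CPM in mt vehicle, a log2 difference of -2.39 ± 0.32 (SE, adjusted p = 0.0019). Reads thus remained in mt, and the labels do not say which part of the gene was deleted. Each genotype is 1 line, and the lines also differ in sex: Xist had 2149 to 11837 reads in every mt library and at most 3 in wt, and Ddx3y had 136 to 673 reads in wt and at most 1 in mt. Genotype, line and sex cannot be told apart. All 19 epicardial and mesothelial markers had reads in every group. The 4 mt replicate 1 libraries also held some cardiomyocyte transcripts. Myh6, a cardiac myosin heavy chain, was at 14.6 to 28.4 CPM there and at 0 to 0.440 CPM in the other 12 libraries. Myh7 and Myl2 were also highest there, at 9.18 to 18.3 and 7.53 to 19.5 CPM. Tnnt2 was not, at 67.3 to 167 CPM there and 129 to 907 CPM in wt, and Nkx2-5 had 1 to 8 reads there. Results from mt are therefore given with and without the mt replicate 1 libraries where they differ. In these bulk samples, fewer cells of a type and less RNA per cell cannot be told apart.

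Of the 44 members, 28 had enough reads to be tested: 3 HoxA, 8 HoxB, 5 HoxC and 7 HoxD genes, the 3 Meis genes, Pbx2 and Pbx4. The 16 others had 1 to 105 reads summed over all libraries and reached at most 0.588 CPM in any. They were 8 HoxA, 2 HoxB, 4 HoxC and 2 HoxD genes, among them Hoxa4, Hoxa9, Hoxb13, Hoxc5, Hoxc8, Hoxd12 and Hoxd13. Of the 28 tested, 20 were called in at least 1 of 12 comparisons, and 8 in none, among them Hoxb5, Hoxb6, Hoxb8, Hoxc9, Meis1 and Pbx2.

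**Figure D1:**
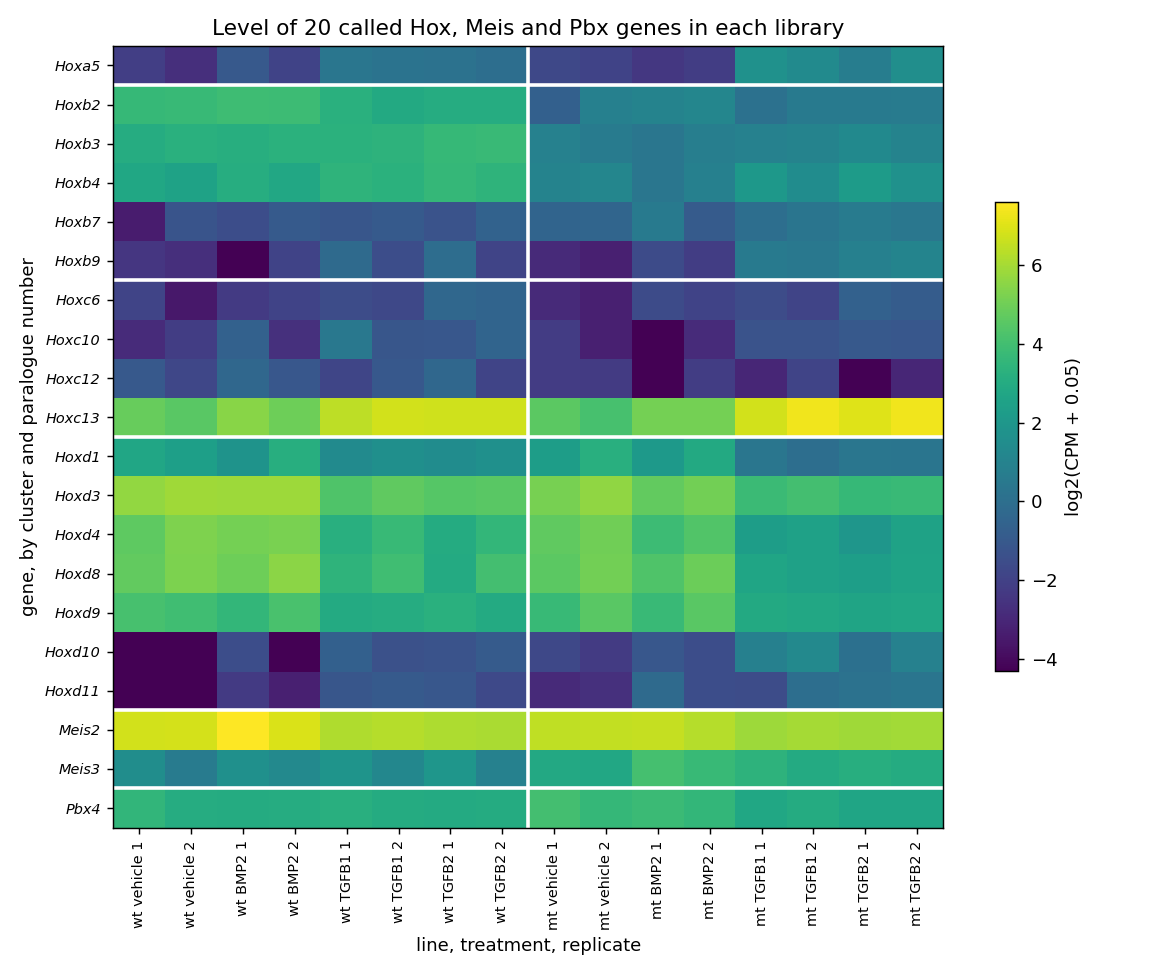
Colour gives log2(CPM + 0.05) of each of the 20 genes called in at least 1 comparison (rows, by cluster and paralogue number) in each of the 16 libraries (columns, wt left of the white line, mt right). Colours compare libraries within a gene, since CPM is not scaled for gene length: the HoxD genes from Hoxd1 to Hoxd9 darken with TGFB1 and TGFB2, Hoxc13 brightens, and Hoxb2, Hoxb3 and Hoxb4 are darker in mt.

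The unstimulated cells of both lines used a restricted Hox set. Per kilobase of exon (lengths from GENCODE vM21, a later annotation than the files use), Hoxd8 stood at 11.9, Hoxd4 at 11, Hoxc13 at 10.5 and Hoxd9 at 7.77 CPM per kb in wt vehicle, and at 10.5, 9.80, 8.49 and 8.66 CPM per kb in mt vehicle. Hoxd3 was at 13.2 and 10.0 CPM per kb as deposited, but its entry spans Hoxd4. With all Hoxd4 reads subtracted it was at 5.41 and 3.12 CPM per kb, below the other 4. Among the partners, Pbx2 was at 13.3, Meis2 at 9.30, Pbx4 at 4.46, Meis1 at 3.08 and Meis3 at 0.681 CPM per kb in wt vehicle. Lengths count every annotated exon base, and libraries were made without fragmentation, so reads may not scale with length. By CPM alone, Meis2 was above Pbx2 in wt vehicle, at 112 against 48.4 CPM. Summed over a cluster, HoxD reads came to 143 ± 22.0 CPM (SD, n = 2) in wt vehicle, or 110 ± 11.6 CPM with Hoxd4 reads taken off once, HoxB to 29.8 ± 0.463, HoxC to 26.7 ± 3.43, nearly all of it Hoxc13, and HoxA to 4.61 ± 0.157 CPM.

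In wt, TGFB1 changed 9 of the 28 tested members, 5 higher and 4 lower, and TGFB2 changed 10, 6 higher and 4 lower. The background over all tested genes was 19% with TGFB1 (10.8% higher, 8.21% lower) and 20.1% with TGFB2 (11.1% higher, 9.03% lower). In mt the counts were 11 of 28 with TGFB1 (5 higher, 6 lower) against a background of 16.4% (7.97% higher, 8.45% lower), and 12 of 28 with TGFB2 (6 higher, 6 lower) against 17.4% (8.17% higher, 9.25% lower). The members' share was above that background in each comparison. These counts do not stand for all 44 members. Of the 28, 10 reached the read minimum in no vehicle library: Hoxa5, Hoxb5, Hoxb8, Hoxb9, Hoxc6, Hoxc9, Hoxc10, Hoxc12, Hoxd10 and Hoxd11. In most cases they could be tested only because a treated group was high. Of the 18 members that reached the read minimum in a vehicle library, wt TGFB1 changed 1 higher and 4 lower, wt TGFB2 2 higher and 4 lower, and each ligand in mt 1 higher and 6 lower. The median log2 change over those 18 was -0.29, -0.36, -0.08 and 0.01 in that order, with medians over all genes between -0.01 and 0.02. TGFB1 and TGFB2 share their vehicle libraries, so their counts are not independent. Single libraries moved the counts: without wt vehicle replicate 2 they were 4 for both ligands in wt, without wt TGFB1 replicate 1 5 for TGFB1 and without wt TGFB2 replicate 1 6 for TGFB2. In mt the TGFB1 count was 7 without mt vehicle replicate 2 or mt TGFB1 replicate 2, and the TGFB2 count was 7 without mt TGFB2 replicate 2. With replicate number as a block, the count for wt TGFB1 moved from 9 to 15 while the share of all genes called rose from 19% to 33.4%, by about the same factor. Without the 4 mt replicate 1 libraries the mt counts were 7 and 7, against 9.01% and 9.18% of all genes, the kept genes being Hoxa5, Hoxc13, Hoxd1, Hoxd3, Hoxd4, Hoxd8 and Hoxd9. The wt calls of Hoxc6 (adjusted p = 0.054) and Meis2 (0.086) with TGFB2 and of Hoxc10 with TGFB1 (0.089) were also lost then. That fit leaves 1 library in each mt group, assumed to vary like the wt groups. With only the groups compared in the fit, 1.88% of all genes were called for TGFB1 in mt and the count of members was 4. Hoxb9, Hoxd1, Hoxd3, Hoxd9, Hoxd10 and Pbx4 were lost then (adjusted p = 0.05 to 0.23) and Hoxd11 fell under the read minimum and was not tested, while Hoxd9, Hoxd10 and Pbx4 were lost with TGFB2 in mt (0.069, 0.056 and 0.086). In wt that fit lost Hoxb4 (0.055) and Hoxc6 (0.06) with TGFB2 and Hoxc10 (0.074) with TGFB1.

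**Figure D2:**
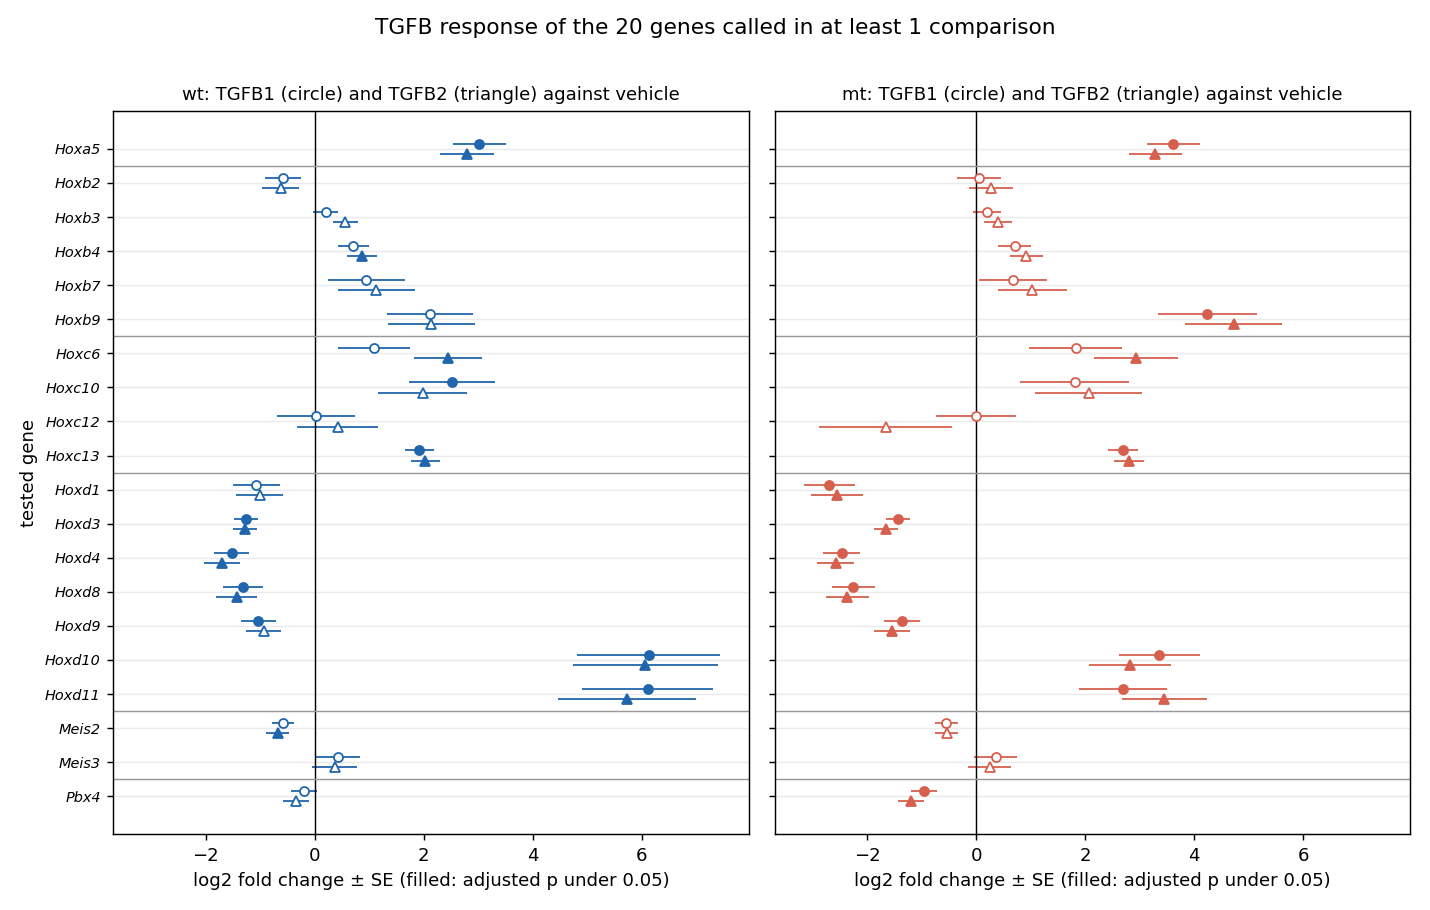
Each point is the log2 fold change of 1 of the same 20 genes with TGFB1 (circle) or TGFB2 (triangle) against vehicle, in wt (left) and mt (right), with its SE. Filled points have an adjusted p under 0.05. In the HoxD block, Hoxd1 to Hoxd9 lie left of 0 and Hoxd10 and Hoxd11 right of it in both panels. Fitted values of Hoxd10 and Hoxd11 in wt rest on 0 vehicle reads and are no estimate of size.

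The HoxD cluster split in its middle. Hoxd1, Hoxd3, Hoxd4, Hoxd8 and Hoxd9 lie together at one end. Their entries were lower in every TGFB library than in any vehicle library of the same line. The next genes along, Hoxd10 and Hoxd11, rose from near 0 reads. The break was placed where the direction changed, so low-numbered here means Hoxd1 to Hoxd9 and high-numbered means Hoxd10 and Hoxd11. How often genes at large separate between groups in this way was not counted, here or for the genes below. In mt all 5 low-numbered entries and both high-numbered genes were called with each ligand. Of these, Hoxd3 was not called in mt once the reads of Hoxd4 were subtracted (adjusted p = 0.42 and 0.14), and the 4 mt calls of Hoxd10 and Hoxd11 were lost without the mt replicate 1 libraries (adjusted p = 0.07 to 0.12). In wt, 6 of the 7 tested were called with TGFB1 and 5 with TGFB2. Of all genes, 19% and 20.1% were called with TGFB1 and TGFB2 in wt, and 16.4% and 17.4% in mt. The 7 include Hoxd3, whose entry spans Hoxd4 and may also count Hoxd4 reads. They also include Hoxd10 and Hoxd11, which reached the read minimum in no vehicle library. The cluster lies on chromosome 2 of mm9, plus strand, with Hoxd13 starting at 74506366 and Hoxd1 ending at 74603199. Hoxd9 (chr2:74535819-74538265) and Hoxd10 (chr2:74530004-74533159), which moved in opposite directions, are neighbours.

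Hoxd4 patterns the neck vertebrae. In wt it was at 25.2 and 39.9 CPM in vehicle, 9.25 and 13.3 with TGFB1, 8.08 and 12 with TGFB2, and 35.1 and 37.4 under BMP2. The mt line gave 25.9 and 32.0 CPM in vehicle, 4.92 and 5.57 with TGFB1, 3.75 and 5.88 with TGFB2, and 14.5 and 20.9 under BMP2. Every TGFB library of either line was below every vehicle library. The log2 changes were -1.52 ± 0.32 (adjusted p = 0.0062) and -1.69 ± 0.33 (adjusted p = 0.0032) in wt for TGFB1 and TGFB2, and -2.46 ± 0.34 (adjusted p = 0.0006) and -2.57 ± 0.34 (adjusted p = 0.00044) in mt. The wt TGFB1 call was lost without wt vehicle replicate 2 (adjusted p = 0.07) or without wt TGFB1 replicate 1 (adjusted p = 0.075). The fall was larger in mt by 0.91 ± 0.39 on the log2 scale, pooled over both ligands, which was not called (adjusted p = 0.58), but was with the replicate block (-0.93 ± 0.22, adjusted p = 0.043).

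Hoxd8, a paralogue of the middle of the cluster, was at 26.9 and 38.4 CPM in wt vehicle, 10.8 and 15.4 with TGFB1, 7.89 and 16.3 with TGFB2, and 30.9 and 45.7 under BMP2. The mt libraries gave 23.9 and 33.6 CPM in vehicle, 6.46 and 5.65 with TGFB1, 5.05 and 6.10 with TGFB2, and 20 and 30.7 under BMP2. Vehicle and TGFB libraries did not overlap in either line, and replicate 2 was the higher library in most groups. It fell by 1.31 ± 0.37 (adjusted p = 0.027) and by 1.43 ± 0.37 (adjusted p = 0.017) in wt and by 2.25 ± 0.39 (adjusted p = 0.0023) and by 2.36 ± 0.39 (adjusted p = 0.0016) in mt, on the log2 scale, for TGFB1 and TGFB2. The wt TGFB1 call was lost without wt vehicle replicate 2 (adjusted p = 0.18), wt TGFB1 replicate 1 (0.19) or wt TGFB1 replicate 2 (0.063). The wt TGFB2 call was lost without wt vehicle replicate 2 (0.12) or wt TGFB2 replicate 1 (0.15), and without wt TGFB2 replicate 2 the log2 change grew to -2.05 (adjusted p = 0.012).

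Hoxd9, a paralogue used in the lower spine and the limb, was at 17.8 and 15.3 CPM in wt vehicle, 7.90 and 8.32 with TGFB1, 9.59 and 7.86 with TGFB2, and 12 and 18 under BMP2. In mt the libraries gave 13.2 and 23.8 CPM in vehicle, 7.56 and 7 with TGFB1, 6.20 and 6.56 with TGFB2, and 13.5 and 23.2 under BMP2. All TGFB libraries were below all vehicle libraries of their line, although mt vehicle replicate 2 was far above replicate 1. The log2 change in wt was -1.03 ± 0.32 with TGFB1 (adjusted p = 0.044), a call that held in 6 of 16 fits leaving out 1 library (adjusted p up to 0.19, lost without any wt vehicle library or any TGFB library of either line). With TGFB2 it was -0.93 ± 0.32 (adjusted p = 0.065, and 0.017 with the replicate block). In mt the changes were -1.35 ± 0.33 (adjusted p = 0.015) and -1.54 ± 0.33 (adjusted p = 0.0075). Without mt vehicle replicate 2 they were -0.86 (adjusted p = 0.13) and -1.05 (adjusted p = 0.072). Leaving out either mt TGFB1 library gave adjusted p = 0.062 and 0.11 for TGFB1, and leaving out either mt TGFB2 library gave 0.061 for TGFB2.

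Hoxd1, the lowest-numbered HoxD gene, was at 6.61 and 5.20 CPM in wt vehicle, 2.53 and 3.05 with TGFB1, 2.73 and 3.09 with TGFB2, and 3.46 and 8.79 under BMP2. Values in mt were 4.96 and 9.04 CPM in vehicle, 1.25 and 0.953 with TGFB1, 1.22 and 1.18 with TGFB2, and 4.31 and 7.62 under BMP2. The TGFB libraries were the lowest of each line, and the BMP2 replicates of both lines and the vehicle replicates of mt lay far apart. The mt log2 changes of -2.69 ± 0.47 (adjusted p = 0.0027) and -2.55 ± 0.47 (adjusted p = 0.0031) were called. Those in wt, -1.07 ± 0.43 and -1.01 ± 0.43, were not (adjusted p = 0.11 and 0.13), and were with the replicate block (adjusted p = 0.025 and 0.034). The difference between the lines, -1.58 ± 0.54, was not called (adjusted p = 0.37).

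Hoxd3, a paralogue of the neck region, carries a limit of counting. Its entry (chr2:74550049-74586328) spans the whole of Hoxd4 (chr2:74560034-74567216) on the same strand. Entries with the same start and end were counted alike: among 275 such pairs the smaller total was a median 99.1% of the larger. Those pairs do not show how nested genes were counted. Hoxa3, whose entry spans Hoxa5, had 27 reads with TGFB1 in mt against 114 for Hoxa5, so it did not hold all reads of its inner gene. How many Hoxd4 reads the Hoxd3 entry holds is not known. As deposited, Hoxd3 was at 50.8 and 59.6 CPM in wt vehicle, 20.2 and 25.9 with TGFB1, 22.3 and 23.5 with TGFB2, and 58.0 and 57.4 under BMP2. Values in mt were 35.3 and 48.6 CPM in vehicle, 14.2 and 16.7 with TGFB1, 12.8 and 13.7 with TGFB2, and 26.5 and 33.7 under BMP2. Vehicle and TGFB did not overlap, and the log2 changes were -1.26 ± 0.22 and -1.27 ± 0.22 in wt (adjusted p = 0.002 and 0.0018) and -1.44 ± 0.22 and -1.66 ± 0.22 in mt (adjusted p = 0.0012 and 0.00048). With all Hoxd4 reads subtracted, the remainder was at 25.6 and 19.8 CPM in wt vehicle and at 9.43 and 16.7 CPM in mt vehicle, against 9.25 and 11.1 CPM with TGFB1 and 9.03 and 7.85 CPM with TGFB2 in mt. The remainder was called only for TGFB1 in wt (-0.94 ± 0.27, adjusted p = 0.03), and not for TGFB2 in wt (-0.81 ± 0.27, adjusted p = 0.053) or for mt (-0.36 ± 0.27, adjusted p = 0.42, and -0.64 ± 0.28, adjusted p = 0.14). GENCODE exons of both genes share 388 bases, 13.2% of Hoxd4's, so full subtraction may remove too much or too little. A fall of Hoxd3 itself in mt is therefore not called here.

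Hoxd10 and Hoxd11, used in the lower spine and the forelimb and hindlimb, had 0 reads in both wt vehicle libraries. Hoxd10 was at 0.589 and 0.339 CPM with TGFB1 and at 0.364 and 0.486 with TGFB2 in wt, from 21 and 17 reads, which is at least 7.23-fold and at least 7.40-fold higher than a floor of 3 reads over the vehicle group. Hoxd11 was at 0.413 and 0.462 CPM with TGFB1 and at 0.425 and 0.265 with TGFB2, from 22 and 13 reads, at least 7.58-fold and at least 5.66-fold higher. All 4 wt TGFB libraries held reads of both genes. With BMP2 in wt, Hoxd10 was at 0.301 and 0 CPM and Hoxd11 at 0.151 and 0.053 CPM. Both were called with each ligand (adjusted p = 0.0077 and 0.0083 for Hoxd10, 0.0049 and 0.0084 for Hoxd11). Without wt vehicle replicate 2 the adjusted p was 0.061 for Hoxd10 with either ligand and 0.06 for Hoxd11 with TGFB2.

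In mt, Hoxd10 was at 0.248 and 0.161 CPM in vehicle (6 reads), 1.76 and 2.38 with TGFB1 (89 reads), 0.995 and 1.82 with TGFB2 (64 reads), and 0.417 and 0.305 under BMP2 (10 reads). Its TGFB libraries were all above its vehicle and BMP2 libraries, and the log2 changes were 3.36 ± 0.74 (adjusted p = 0.01) and 2.82 ± 0.75 (adjusted p = 0.024). Hoxd11 went from 0.0827 and 0.108 CPM in mt vehicle (3 reads) to 0.294 and 0.953 with TGFB1 (30 reads) and 1.07 and 1.18 with TGFB2 (47 reads), ratios of 7.5 (95% counting interval 2.33 to 38.4) and 11.7 (3.76 to 58.7). BMP2 libraries of mt held 0.834 and 0.305 CPM of Hoxd11, a ratio of 4.41 (1.21 to 24.1), and overlapped those with TGFB1. Intervals cover counting error only. Both genes were called with each ligand in mt, Hoxd11 at adjusted p = 0.043 and 0.011. None of these 4 calls held without the mt replicate 1 libraries (adjusted p = 0.087 and 0.12 for Hoxd10, 0.099 and 0.07 for Hoxd11), where the log2 changes were 3.84, 3.45, 3.08 and 3.38. Single libraries mattered too. Hoxd10 with TGFB1 was lost without mt vehicle replicate 2 (adjusted p = 0.08) or mt TGFB1 replicate 2 (0.072), and with TGFB2 without mt vehicle replicate 1 (0.061) or 2 (0.13) or mt TGFB2 replicate 2 (0.19). Hoxd11 with TGFB1 held in 6 of 16 such fits, its log2 change of 2.69 moving to 1.49 (adjusted p = 0.45) without mt TGFB1 replicate 2, and was not called by DESeq2 (0.078) or without the filter on low counts (0.052). With TGFB2 it was lost without mt vehicle replicate 1 (0.052) or 2 (0.071) or mt TGFB2 replicate 2 (0.064). Hoxd12 and Hoxd13, at the far end, had 1 read each in all 16 libraries.

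**Figure D3:**
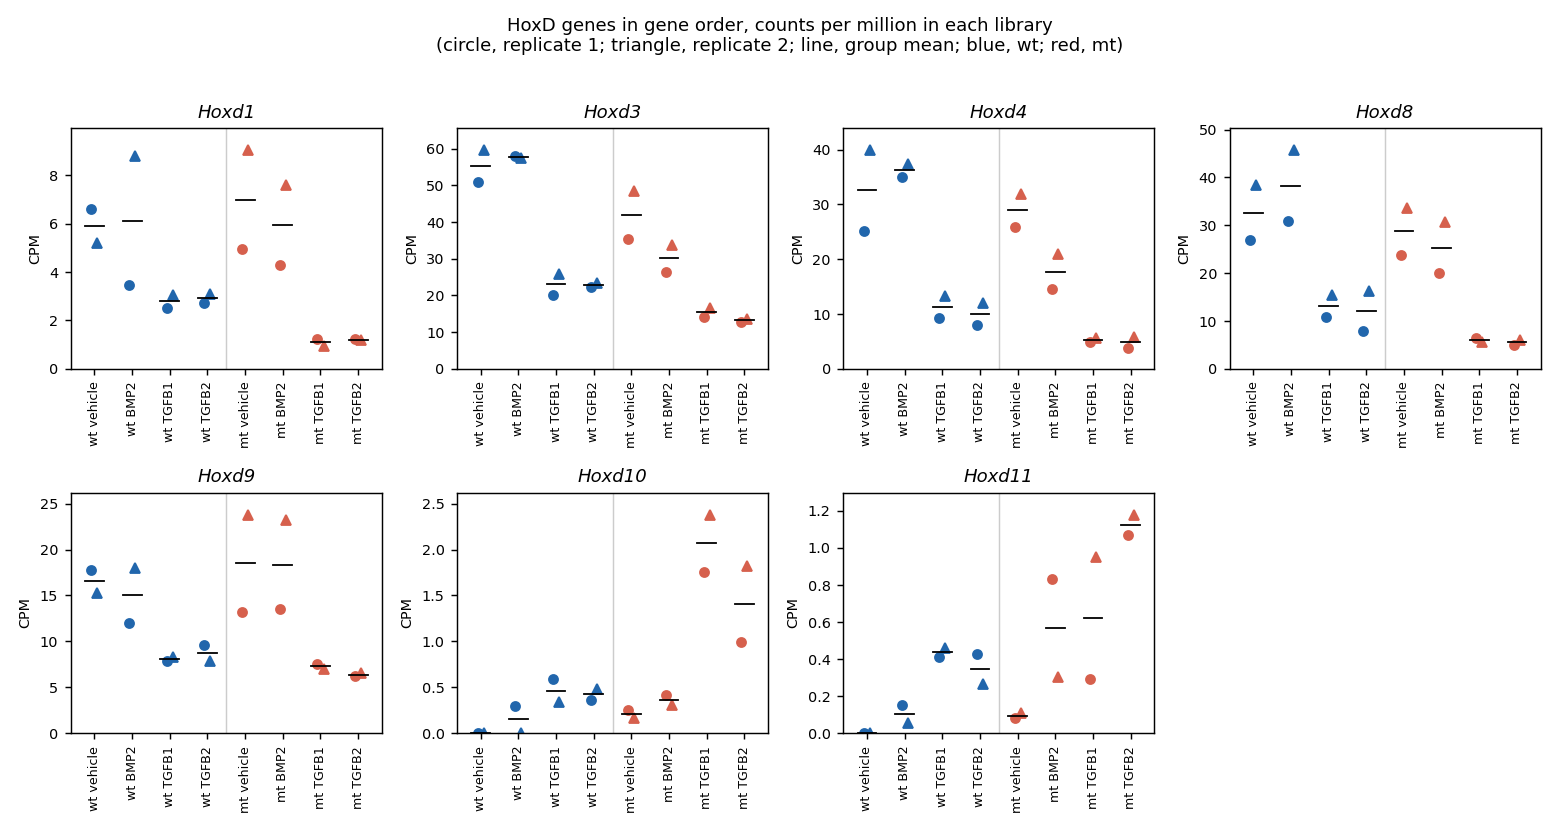
CPM of the 7 tested HoxD genes in each library, from Hoxd1 to Hoxd11 by paralogue number, by line and treatment. For Hoxd1 to Hoxd9 the TGFB points lie below the vehicle points in both lines, while Hoxd10 and Hoxd11 start at 0 CPM in wt vehicle and rise with TGFB.

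With TGFB, no change was called in Lnp or Mtx2, on either side of the cluster. Evx2, which lies between Lnp and Hoxd13, had at most 1 read in any group and was not tested. Lnp had log2 changes of 0.23 to 0.60 with TGFB, and Mtx2, beside Hoxd1, of -0.98 to -0.61, with SEs of 0.32 and 0.50. Lnp with TGFB2 in mt was called with the replicate block (adjusted p = 0.033). The SE of Mtx2 leaves room for a change like that of Hoxd9. Epicardial and mesothelial markers fell alongside the low-numbered HoxD genes: their 19 genes summed to 5140 to 5620 CPM in wt vehicle, 1870 to 2200 with TGFB1 and 1760 to 2180 with TGFB2, and to 4420 to 5400, 1240 to 1300 and 1080 to 1130 CPM in mt. With TGFB1, 11 of the 19 fell and none rose in wt, and 13 fell and 1 rose in mt. With TGFB2, 12 fell and 1 rose in wt, and 13 fell and 1 rose in mt. Of all genes, 8.21% fell with TGFB1 and 9.03% with TGFB2 in wt, and 8.45% and 9.25% in mt. The part of these markers in the HoxD result was not tested.

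The promoters of the genes on either side of the break are shown because Hoxd9 and Hoxd10 are neighbours that moved apart, with Hoxd4 as a gene lowered in both lines and Hoxa5 as the HoxA gene that rose. They are the 250 bases before each start in RefSeq (GRCm38.p6, a later build than the mm9 of the counts), on the gene's strand: chr2:74721728-74721977 for Hoxd4, chr2:74697513-74697762 for Hoxd9, chr2:74691641-74691890 for Hoxd10, all plus, and chr6:52204588-52204837 for Hoxa5, minus. Capitals mark GGCGC or its reverse complement GCGCC, a GC-rich motif bound by SMAD3 and SMAD4.
Hoxd4: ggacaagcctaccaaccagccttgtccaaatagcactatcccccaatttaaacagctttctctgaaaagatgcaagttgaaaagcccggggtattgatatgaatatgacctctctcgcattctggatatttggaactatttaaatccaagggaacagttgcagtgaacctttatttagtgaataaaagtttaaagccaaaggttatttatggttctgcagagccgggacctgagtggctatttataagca
Hoxd9: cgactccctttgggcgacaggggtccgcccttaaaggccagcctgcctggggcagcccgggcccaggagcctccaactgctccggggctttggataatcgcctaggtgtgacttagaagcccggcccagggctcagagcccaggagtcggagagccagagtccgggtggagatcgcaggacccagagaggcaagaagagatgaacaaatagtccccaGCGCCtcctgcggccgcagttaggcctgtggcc
Hoxd10: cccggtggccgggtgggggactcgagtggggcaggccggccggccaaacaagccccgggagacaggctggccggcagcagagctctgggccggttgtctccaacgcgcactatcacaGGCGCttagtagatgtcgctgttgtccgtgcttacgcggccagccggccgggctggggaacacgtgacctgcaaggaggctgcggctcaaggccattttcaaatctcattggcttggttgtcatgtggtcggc
Hoxa5: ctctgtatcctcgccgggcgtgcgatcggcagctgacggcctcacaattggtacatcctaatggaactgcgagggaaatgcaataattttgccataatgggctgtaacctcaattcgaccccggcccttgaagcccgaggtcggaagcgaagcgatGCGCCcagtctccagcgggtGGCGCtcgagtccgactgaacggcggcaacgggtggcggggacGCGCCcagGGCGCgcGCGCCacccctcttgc
The motif occurs 0 times in the Hoxd4 window, 1 time each in Hoxd9 and Hoxd10, and 5 times in Hoxa5. It occurs in 17 of the 27 members with a window and in 32.0% of all 32851 windows. Member windows are richer in CpG, with a median of 12 against 6. The SMAD box GTCTG (either strand) occurs in 9 of the 27 members and in 42.2% of all windows, the Meis and TGIF core TGACAG in 2 and 15.9%, and the Pbx-Hox motif TGATNNAT in 4 and 7.7%. Motifs were searched separately, and matches are a description of letters only.

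Hoxc13, known for its part in hair and nail formation, was the only abundant HoxC gene and rose in both lines. It was at 28.1 and 23.6 CPM in wt vehicle, 85.0 and 111 with TGFB1, 106 and 106 with TGFB2, and 45.2 and 31.2 under BMP2. The mt libraries held 24.4 and 17.5 CPM in vehicle, 110 and 161 with TGFB1, 130 and 164 with TGFB2, and 34.3 and 34.3 under BMP2. Every TGFB library lay well above every vehicle and BMP2 library. Log2 changes were 1.92 ± 0.27 (adjusted p = 0.00062) and 2.03 ± 0.27 (adjusted p = 0.00041) in wt and 2.70 ± 0.28 (adjusted p = 0.00012) and 2.81 ± 0.28 (adjusted p = 7.9e-05) in mt, and all 4 calls held when any 1 library was left out. The larger rise in mt, by 0.78 ± 0.33, was not called (adjusted p = 0.55). Its entry (mm9 chr15:102751561-102759245) overlaps no other entry. The adjacent Hoxc12 was at 0 to 0.753 CPM with no call for TGFB, and Hoxc11 had 1 read in all.

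Hoxa5, which acts in lung and rib patterning, rose from 0.180 and 0.104 CPM in wt vehicle to 1.24 and 1.11 with TGFB1 and 1.09 and 0.928 with TGFB2, with 0.452 and 0.212 under BMP2. In mt it rose from 0.248 and 0.215 CPM in vehicle to 3.23 and 2.57 with TGFB1 and 1.61 and 2.92 with TGFB2, with 0.139 and 0.174 under BMP2. TGFB libraries did not overlap the others in either line. Log2 changes were 3.02 ± 0.49 and 2.80 ± 0.50 in wt (adjusted p = 0.0013 and 0.002) and 3.62 ± 0.49 and 3.29 ± 0.49 in mt (adjusted p = 0.00051 and 0.0008), and all 4 calls held in each fit leaving out 1 library. Each line had 7 vehicle reads, and Hoxa5 reached the read minimum in no vehicle library. The Hoxa3 entry, which spans Hoxa4 to Hoxa6 and shares no GENCODE exon base with them, was not called.

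Among the trunk genes of HoxB and HoxC, single calls rested on few reads. Hoxb9, a thoracic patterning gene, was at 0.0827 and 0.0538 CPM in mt vehicle, 1.40 and 1.32 with TGFB1, 1.76 and 2.03 with TGFB2, and 0.278 and 0.174 under BMP2. Its 2 vehicle reads against 55 and 80 give ratios of 20.6 (95% counting interval 5.45 to 175) and 29.8 (8 to 251), and it was called (adjusted p = 0.008 and 0.0036). Without the mt replicate 1 libraries the adjusted p was 0.11 and 0.067, and without mt vehicle replicate 2 it was 0.073 for TGFB1. In wt it was at 0.135 and 0.104 CPM in vehicle, 0.825 and 0.308 with TGFB1, 0.911 and 0.221 with TGFB2, and 0 and 0.212 under BMP2. The wt TGFB libraries were above vehicle but far apart, and the log2 changes of 2.12 ± 0.79 and 2.14 ± 0.80 were not called (adjusted p = 0.087 and 0.084, and 0.043 and 0.046 with the replicate block).

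Hoxc6 was at 0.225 and 0.0347 CPM in wt vehicle, 0.295 and 0.246 with TGFB1, 0.729 and 0.663 with TGFB2, and 0.151 and 0.212 under BMP2. In mt the values were 0.0827 and 0.0538 CPM, 0.294 and 0.220, 0.612 and 0.499, and 0.278 and 0.218 in the same order. The TGFB2 libraries were the highest of each line. TGFB2 raised it by 2.45 ± 0.62 in wt (adjusted p = 0.014), and in mt the 22 reads against 2 give a ratio of 8.21 (2.02 to 72, adjusted p = 0.021, and 0.068 by DESeq2). The wt change was 1.59 (adjusted p = 0.13) without wt vehicle replicate 2 and 4.08 (0.008) without replicate 1, and the call was lost without wt TGFB2 replicate 1 (0.075) or 2 (0.063) and, for mt, without any of the 4 mt libraries compared (0.063 to 0.14) or without the mt replicate 1 libraries (0.2). TGFB1 was not called in either line, and the direct comparison of TGFB2 with TGFB1 called no member in either line.

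Hoxc10, a lumbar patterning gene, was called only with TGFB1 in wt (2.52 ± 0.79, adjusted p = 0.043), from 0.0899 and 0.173 CPM in vehicle to 1.30 and 0.400, with 0.425 and 0.663 under TGFB2 and 0.602 and 0.106 under BMP2. Replicate 1 was the high library, and without it the log2 change was 1.48 (adjusted p = 0.34), while without replicate 2 it was 3.19 (0.029). The call held in 6 of 16 fits leaving out 1 library. Values in mt were 0.165 and 0.0538 CPM in vehicle, 0.367 and 0.367 with TGFB1, 0.459 and 0.428 with TGFB2, and 0 and 0.0871 under BMP2, with no call. Hoxb8 had log2 changes of 1.64 to 2.67 with TGFB (SE 1.15 to 1.25) and was called in neither line (adjusted p = 0.14 to 0.43). Hoxc9, with 2 vehicle reads in wt and 3 in mt, had ratios from 4.75 (1.4 to 25.1) to 7.84 (1.74 to 72.1) and was not called either (adjusted p = 0.12 to 0.25). The replicate block called Hoxb8 for TGFB1 in wt (0.014) and for TGFB2 in mt (0.043), and Hoxc9 for TGFB2 in mt (0.039). Hoxc5, too low to test, had 1 read in mt vehicle and 15 and 21 with TGFB1 and TGFB2, ratios of 11.3 (1.73 to 474) and 15.7 (2.52 to 648).

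**Figure D4:**
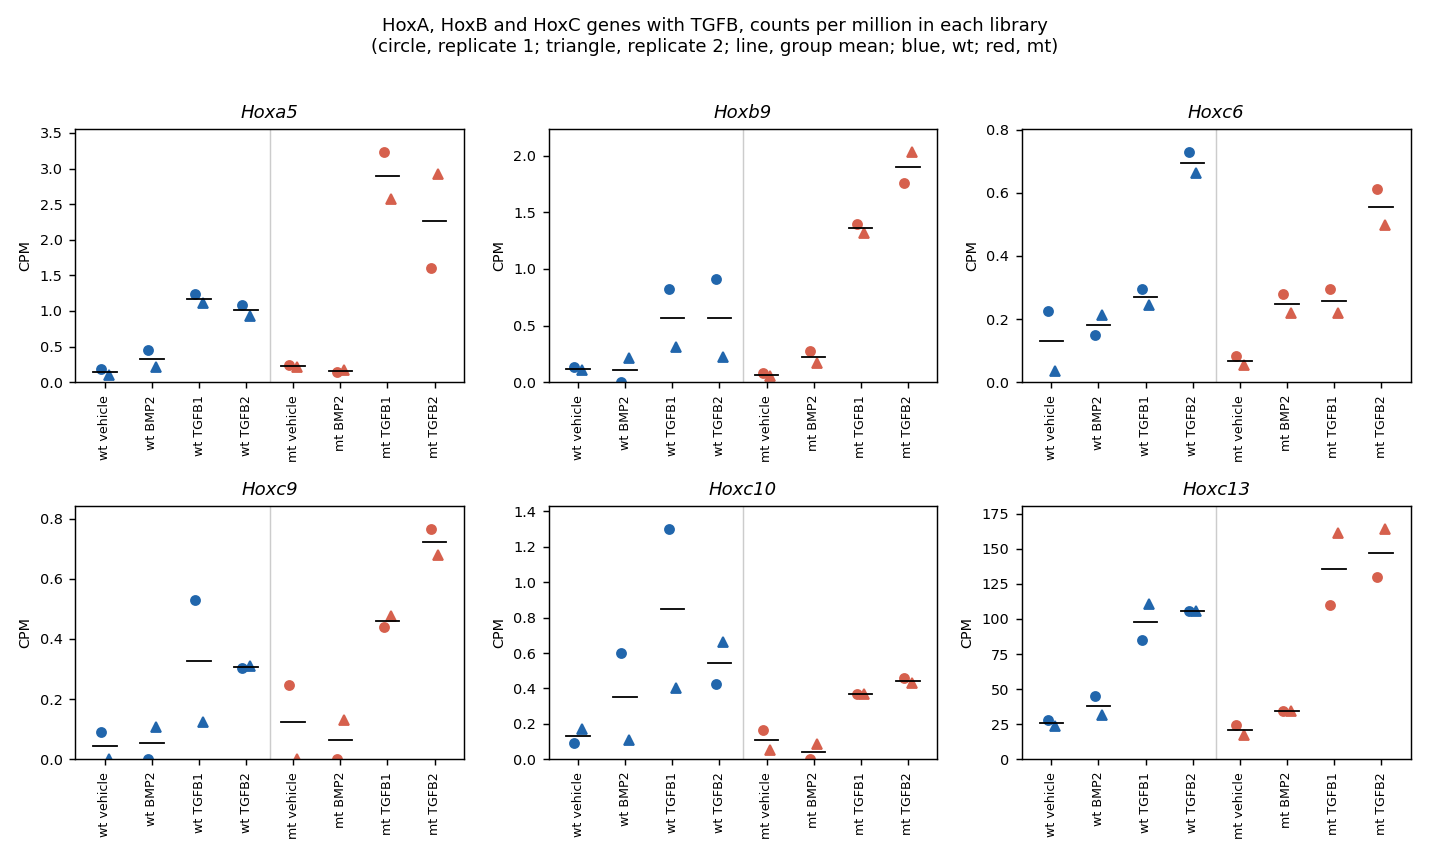
CPM of 6 HoxA, HoxB and HoxC genes in each library, by line and treatment. Hoxc13 and Hoxa5 with TGFB lie above every vehicle and BMP2 library, while Hoxb9, Hoxc6, Hoxc9 and Hoxc10 move at levels near or under 2 CPM.

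The Meis and Pbx genes changed less than the Hox genes. Meis2, a TALE partner with broad embryonic use, was at 111 and 113 CPM in wt vehicle, 72.1 and 77.2 with TGFB1, 69.9 and 69.2 with TGFB2, and 195 and 124 under BMP2. The mt line gave 88.4 and 90.9 CPM in vehicle, 58.8 and 63.3 with TGFB1, 60.6 and 62.3 with TGFB2, and 94.9 and 78.6 under BMP2. TGFB libraries were below vehicle in both lines without overlap. The fall was called for TGFB2 in wt (-0.68 ± 0.21, adjusted p = 0.042) and not for TGFB1 in wt (-0.58 ± 0.21, 0.081) or TGFB1 and TGFB2 in mt (-0.55 ± 0.21, 0.1, and -0.54 ± 0.21, 0.11). With the replicate block all 4 were called (adjusted p = 0.027, 0.011, 0.036 and 0.038). The wt TGFB2 call held in 8 of 16 fits leaving out 1 library, with a log2 change of -0.73 to -0.67 and an adjusted p of up to 0.16, and was lost without the filter on low counts (0.08). An entry named meis2a overlaps Meis2 on the same strand, and was called lower with both ligands in wt (-0.71 ± 0.19, adjusted p = 0.023, and -0.85 ± 0.19, adjusted p = 0.0085).

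Pbx4, a Pbx gene best known from the testis, fell in mt from 16.6 and 12.4 CPM in vehicle to 6.83 and 8.03 with TGFB1 and 6.35 and 6.35 with TGFB2, with 14.2 and 11.8 under BMP2. Vehicle libraries of wt held 9.89 ± 2.22 CPM (SD, n = 2), with replicate 1 the higher, against 9.31 and 8.01 with TGFB1, 7.71 and 7.95 with TGFB2, and 7.98 and 8.26 under BMP2. Vehicle and TGFB1 overlapped in wt and not in mt. The mt log2 changes were -0.96 ± 0.24 (adjusted p = 0.017) and -1.19 ± 0.24 (adjusted p = 0.0055), and those in wt -0.19 ± 0.24 and -0.34 ± 0.24 (adjusted p = 0.67 and 0.39). The difference between the lines, -0.81 ± 0.29, was not called (adjusted p = 0.42). Without the mt replicate 1 libraries the mt changes were -0.63 (adjusted p = 0.35) and -0.96 (0.14). For TGFB1 the call was lost without mt vehicle replicate 1 (0.1) or either mt TGFB1 library (0.1 and 0.053), and for TGFB2 without mt TGFB2 replicate 2 (0.053).

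Meis1 and Pbx2, both broadly used partners, were at 16.2 to 35.2 and 32.4 to 53.5 CPM over all libraries and were called in no comparison, Meis1 being called under the replicate block for TGFB1 in wt (-0.56, adjusted p = 0.032).

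BMP2 changed no member in either line by edgeR's quasi-likelihood test or by DESeq2. The background was 0% in wt and 0.0416% in mt (0.0297% higher, 0.0119% lower). At an unadjusted p under 0.05, 2 members passed in wt (Hoxd11 and Meis2) and 4 in mt (Hoxc13, Hoxd4, Hoxd11 and Meis3). The share of all genes past that unadjusted cutoff was not counted, here or for the comparisons below. Hoxc13 was 0.56 ± 0.27 higher in wt and 0.71 ± 0.27 higher in mt on the log2 scale (adjusted p = 0.91 and 1). Hoxd4 in mt was -0.70 ± 0.32 against vehicle (adjusted p = 1) and 0.16 ± 0.32 in wt, a difference in response of -0.86 ± 0.45 (adjusted p = 0.99). Meis3 in mt was 1.07 ± 0.39 higher (adjusted p = 1). TGFB2 against TGFB1 called none either (background 0% in both lines), with 1 member in wt, Hoxc6, and 0 in mt at an unadjusted p under 0.05, and 0 by DESeq2.

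The TGFB response differed between the lines for no member (background 0.184%, 0.00594% higher and 0.178% lower in mt), by edgeR or by DESeq2. At an unadjusted p under 0.05 there were 4: Hoxc13, Hoxd1, Hoxd4 and Pbx4. Without the share of all genes at that cutoff, these 4 are no result about the members. In the BMP2 response there was none at either level (background 0% by adjusted p). For each of those 4 genes the change with TGFB was larger in mt, the line without Tgfbr3. Hoxd4 alone was called with the replicate block, where 2.41% of all genes were.

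The lines themselves differed in the low-numbered HoxB genes. In vehicle, 4 of 28 tested members were called, Meis3 higher in mt and Hoxb2, Hoxb3 and Hoxb4 lower, against a background of 3.58% (2.45% higher, 1.13% lower). Over all 4 treatments, 12 of 28 were called, 4 higher and 8 lower in mt, against 18% (9.83% higher, 8.17% lower). Without the mt replicate 1 libraries these counts were 2 and 7, and with the compared groups fitted alone the vehicle count was 0 (adjusted p = 0.095 to 0.25). The vehicle count was also 2 without either wt vehicle library or without mt vehicle replicate 1.

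Hoxb2, a hindbrain regulator, was at 12.6 and 12.9 CPM in wt vehicle, 9.55 and 7.55 with TGFB1, 8.38 and 8.26 with TGFB2, and 14.8 and 14.6 under BMP2. Values in mt were 0.579 and 1.78 CPM, 1.03 and 1.47, 1.45 and 1.5, and 1.95 and 2.18 in the same order. The lines did not overlap in any treatment. The log2 difference was -3.38 ± 0.39 in vehicle (adjusted p = 0.00073) and -2.85 ± 0.19 over the treatments (adjusted p = 1.7e-06). Without mt vehicle replicate 2 the vehicle difference was -4.46 (adjusted p = 0.00016).

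Hoxb3, its neighbour, was at 8.18 and 9.57 CPM in wt vehicle, 9.78 and 10.6 with TGFB1, 12.8 and 13.5 with TGFB2, and 8.88 and 9.85 under BMP2. In mt the values were 1.82 and 1.51 CPM, 1.84 and 1.94, 2.45 and 1.96, and 1.25 and 1.66. All 8 wt libraries were above all 8 mt libraries. The log2 difference was -2.42 ± 0.25 in vehicle (adjusted p = 0.00047) and -2.52 ± 0.13 over the treatments (adjusted p = 2.4e-07). Within wt, the TGFB2 change of 0.56 ± 0.23 was not called (adjusted p = 0.11) except with the replicate block (0.044).

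Hoxb4, a regulator known from blood stem cells, was at 6.79 and 5.79 CPM in wt vehicle, 10.7 and 9.89 with TGFB1, 12.3 and 10.7 with TGFB2, and 8.58 and 6.99 under BMP2. The mt line gave 1.99 and 2.15 CPM, 4.11 and 2.75, 4.67 and 3.28, and 1.25 and 1.79. The lines did not overlap, and TGFB libraries were above vehicle in each line. The line difference was -1.60 ± 0.30 in vehicle (adjusted p = 0.013) and -1.76 ± 0.15 over the treatments (adjusted p = 1.2e-05). The vehicle call was lost without the mt replicate 1 libraries (0.12), mt vehicle replicate 1 (0.1), or wt vehicle replicate 1 (0.086) or 2 (0.062). TGFB2 raised it in wt by 0.87 ± 0.28 (adjusted p = 0.046), a call that held in 5 of 16 fits leaving out 1 library (adjusted p up to 0.23) and was lost without the filter on low counts (0.14) and with RLE scaling (0.05). TGFB1 in wt (0.71 ± 0.28, adjusted p = 0.1) and TGFB2 in mt (0.92 ± 0.30, adjusted p = 0.054) were called with the replicate block (0.025 and 0.019). TGFB1 in mt was not called in either fit.

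Meis3, a Meis paralogue, was at 2.83 and 1.49 CPM in wt vehicle, 3.59 and 2.22 with TGFB1, 3.76 and 1.86 with TGFB2, and 3.16 and 2.38 under BMP2. The mt libraries held 7.20 and 7.10 CPM, 10.6 and 7.74, 8.95 and 8.02, and 17.2 and 12.9. All mt libraries were above all wt libraries, and mt with BMP2 was highest. The log2 difference was 1.87 ± 0.20 over the treatments (adjusted p = 9e-05). In vehicle alone it was 1.73 ± 0.41 (adjusted p = 0.038), a call that held in 10 of 16 fits leaving out 1 library (1.33, adjusted p = 0.33, without wt vehicle replicate 2) and was lost without the mt replicate 1 libraries (0.29).

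Over the treatments the mt line was also higher in Hoxb7, a trunk gene, with a median of 1.08 CPM (0.479 to 1.53) over its 8 libraries against 0.397 (0.0450 to 0.618) in wt, a log2 difference of 1.33 ± 0.34 (adjusted p = 0.018, and 0.094 without the mt replicate 1 libraries). Hoxd10 and Hoxd11 were higher in mt (2.71 ± 0.51, adjusted p = 0.0042, and 2.20 ± 0.51, adjusted p = 0.012), with medians of 0.706 against 0.320 CPM and 0.569 against 0.208 CPM. Their libraries overlapped between the lines, and the fitted sizes depend on the 0 reads of wt vehicle. Without wt BMP2 replicate 1 the Hoxd10 difference was 3.69, and without mt vehicle replicate 2 the Hoxd11 call was lost (0.059).

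Lower in mt over the treatments were Hoxd3 (-0.67 ± 0.11, adjusted p = 0.0013, and -0.60 ± 0.14, adjusted p = 0.0099, less Hoxd4 reads), Hoxd4 (-0.84 ± 0.16, adjusted p = 0.0038), Hoxd8 (-0.75 ± 0.19, adjusted p = 0.014) and Meis2 (-0.41 ± 0.11, adjusted p = 0.018). None of these 4 was called in vehicle alone, where Hoxd4 was -0.17 ± 0.31 and Hoxd8 -0.18 ± 0.36. Without the mt replicate 1 libraries Hoxd4 (0.056), Hoxd8 (0.11) and Meis2 (0.088) were no longer called. Hoxc12 had a median of 0.427 CPM (0.221 to 0.753) in wt and 0.117 CPM (0 to 0.220) in mt, a log2 difference of -1.82 ± 0.47 (adjusted p = 0.019). That call was lost without the mt replicate 1 libraries (-1.47, 0.096), wt TGFB1 replicate 2 (0.063) or wt TGFB2 replicate 1 (0.051), and the difference grew to -2.57 without mt TGFB2 replicate 2 and to -2.90 without mt BMP2 replicate 2. Hoxd1 and Meis1 were called lower only with the replicate block (-0.64, adjusted p = 0.02, and -0.30, adjusted p = 0.027).

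**Figure D5:**
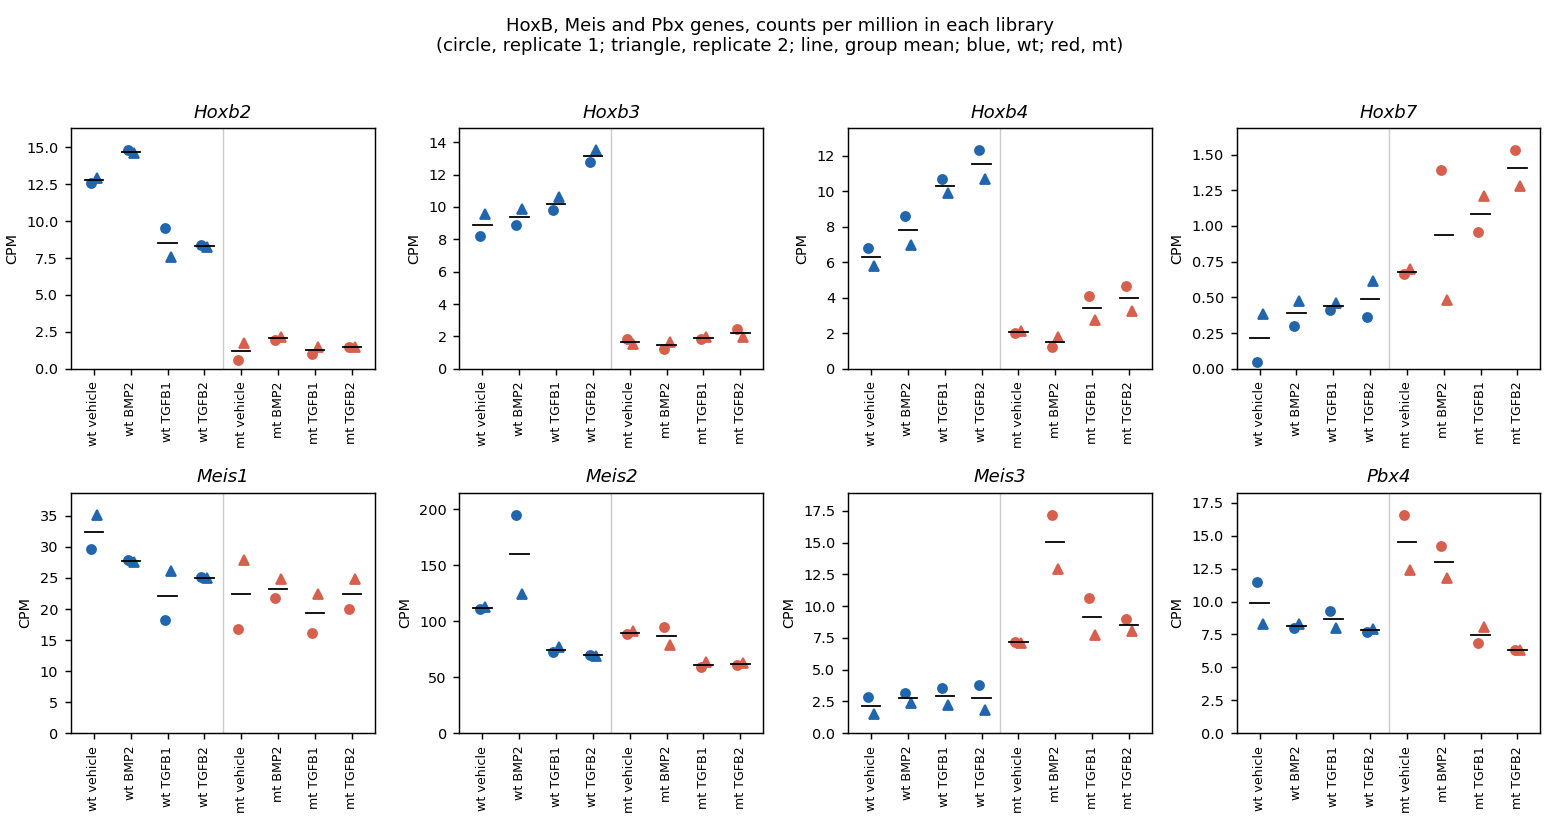
CPM of 4 HoxB genes, the 3 Meis genes and Pbx4 in each library, by line and treatment. Hoxb2, Hoxb3 and Hoxb4 are lower in every mt library than in any wt library and Meis3 is higher in every mt library, while Meis2 falls with TGFB in both lines.

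Other genes tied to the clusters were read from lists chosen for their role. Their counts stand against the shares of all genes called, in either direction, of 19% and 20.1% with TGFB1 and TGFB2 in wt and of 16.4% and 17.4% in mt. Of 9 tested TALE relatives, TGFB1 raised 4 in wt (Pknox2, Tgif1, Mkx and Irx5) and 3 in mt (Tgif1, Mkx and Irx5), and TGFB2 raised 3 in each line and lowered 1 in wt (Pknox1). Tgif1, a corepressor of SMAD signalling, rose by 1.12 ± 0.19 to 1.47 ± 0.19 on the log2 scale over the 4 comparisons (adjusted p = 0.00042 to 0.0018). Pknox2 rose by 2.28 ± 0.29 and 2.45 ± 0.29 in wt (adjusted p = 0.00033 and 0.0002) and had log2 changes of 0.34 ± 0.28 and 0.50 ± 0.28 in mt (adjusted p = 0.48 and 0.27). The difference in response was -1.95 ± 0.35 (adjusted p = 0.057, and 0.0059 with the replicate block). Mkx, a tendon regulator, rose by 2.84 ± 0.55 to 3.19 ± 0.54 (adjusted p = 0.0015 to 0.0043).

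Of 20 tested Polycomb genes, which keep Hox genes repressed, 1 rose and 4 fell with TGFB1 in wt, 2 and 6 with TGFB2 in wt, and 2 and 4 with each ligand in mt, with list medians of -0.25 to -0.19. That is 25% and 40% of the list in wt and 30% with each ligand in mt, the first being near the share of all genes. With the replicate block 10, 10, 9 and 10 were called, against 33.4%, 34.7%, 32.5% and 33.5% of all genes. Phf19, a PRC2 partner, fell, with log2 changes of -2.02 ± 0.32 and -1.88 ± 0.32 in wt (adjusted p = 0.0012 and 0.0016) and -1.22 ± 0.32 and -1.24 ± 0.32 in mt (adjusted p = 0.02 and 0.018). Eed, a PRC2 core subunit, rose by 0.82 ± 0.25 to 1.21 ± 0.25 (adjusted p = 0.0063 to 0.036). Of 12 tested trithorax and H3K27 demethylase genes, TGFB2 in wt lowered Ctcf and Wdr5, and each ligand in mt raised Kdm6a and lowered Ctcf. These are 16.7% of the list in each case and 0% for TGFB1 in wt, near or below the share of all genes, with 5, 4, 3 and 4 genes called under the replicate block.

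Retinoic acid is a known inducer of low-numbered Hox genes. Of 16 tested genes of its synthesis, binding and breakdown, 5 rose with TGFB1 and 6 with TGFB2 in wt, and 6 with each in mt, where TGFB2 also lowered 1 (Aldh1a1). Crabp1, a binding protein, rose by 5.08 ± 0.39 and 5.38 ± 0.39 in wt and by 6.36 ± 0.45 and 6.71 ± 0.45 in mt (adjusted p = 9.5e-06 to 2.6e-05). Between the lines, 4 of the 16 were higher in mt over the treatments and 1 was lower, against 18% of all genes called, and with the replicate block 5 were higher and 3 lower, against 34.1%. The higher ones were Crabp2 (2.12 ± 0.21, adjusted p = 3.9e-05), Stra6 (1.30 ± 0.24, adjusted p = 0.0027), Cyp26b1 (1.39 ± 0.36, adjusted p = 0.02) and Rarg (0.38 ± 0.11, adjusted p = 0.03). The lower one was Aldh1a2, the synthesis enzyme of the epicardium (-1.23 ± 0.18, adjusted p = 0.00062). Of the 3 tested Cdx and Gsx group genes, Gdf11, a signal of trunk patterning, rose with TGFB2 in mt (1.58 ± 0.39, adjusted p = 0.016). No Evx or noncoding gene of the clusters had enough reads to be tested. Of 15 tested flanking genes, 1 was called with TGFB, Skap1 beside HoxB, higher in wt with TGFB2 on few reads (adjusted p = 0.045). With the replicate block 3 were called for TGFB1 and 2 for TGFB2 in wt, and 3 and 5 in mt, which is 13.3% to 33.3% of the list against 32.5% to 34.7% of all genes. Jazf1 and Lnp were higher in mt over the treatments.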

How the data were processed

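Gene counts and library-scaled counts (RPM) of 16 libraries were used, in 2 deposited tables. The counts are whole numbers per gene entry and the deposited RPM values equal counts divided by the column total and scaled to 1e+06 (largest difference 2.9e-11), per the file headers and the values. The submitters' processing notes name TopHat, TopHat2 and mm9; the counting tool, the gene models and the use of strand are not given in the sources used here. Per the labels' protocols, libraries were made without fragmentation. Entries with no gene name (2 in 1 table) were left out.

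Groups were taken from the sample titles. Counts were filtered with filterByExpr (10 reads at the median library, 0.548 CPM, in 2 libraries), scaled by TMM and fitted in edgeR 4.0.16 (R 4.3.3) with 8 group means, 8 residual degrees of freedom and robust quasi-likelihood F tests, adjusted by Benjamini-Hochberg over 16835 genes. SE is the log2 change over the square root of F. TGFB1 and TGFB2 share vehicle libraries. Replicate numbers paired the samples: deviations of same-numbered libraries correlated at 0.16 to 0.76 in all 28 pairs of groups. The main fit did not use this pairing. Its biological coefficient of variation, the spread between replicates, was 0.274, against 0.17 with the replicate block. A change not called in the main fit could therefore be called with the block, as given with each gene. Alternatives were RLE scaling, no filter, the replicate block, DESeq2 1.42.0, compared groups alone, loci counted once, leaving out libraries and, chosen after seeing the data, subtraction of reads in entries inside Hoxd3 and Hoxa3. Members and lists were chosen with earlier results of these data known. The named genes are members called in at least 1 comparison or high in a cluster, and up to 4 called genes of each other list and line with the smallest p. Some genes of the set and of the lists are counted but not reported here by name.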

Additional observations from a re-analysis of the deposited data

How the results depend on the processing

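Of 58 called changes of single members, none changed direction under any of the alternatives that gave a value. Leaving out 1 library at a time kept 831 of 928 values past the threshold, and 33 of the 58 changes held in all 16 such fits. The other alternatives kept 403 of 447. The number of members called ran from 4 to 10 for TGFB1 and 4 to 11 for TGFB2 in wt, 7 to 12 and 7 to 14 in mt, 2 to 5 for the lines in vehicle and 11 to 13 over the treatments, when 1 library was left out, and was 0 throughout for BMP2, the differences in response and TGFB2 against TGFB1. With the replicate block it moved from 9 to 15 for TGFB1 in wt and from 0 to 1 for the TGFB response, mt minus wt. It was 14 for TGFB2 in wt, 12 and 16 in mt, 4 in vehicle and 14 over the treatments, where the share of all genes called also rose, to 34.7%, 32.5%, 33.5%, 10.3% and 34.1%, and the block changed no call beyond those given with each gene. With the compared groups alone it fell to 4 for TGFB1 in mt and to 0 for the lines in vehicle, with fewer genes tested. Without the 4 mt replicate 1 libraries it was 7 for TGFB1 and 7 for TGFB2 in mt, 2 in vehicle and 7 over the treatments. The cause was not tested. Hoxa3 less its inner genes fell under the read minimum and gave no value. Depth limits the genes under about 1 CPM, where 1 to 3 vehicle reads set the ratios.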
